A study of Mus musculus with 8 samples.

Results

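Genes that license DNA for replication, 10 in all, were followed in differentiated C2C12 cells: the origin recognition gene Orc1, the helicase loading factors Cdc6 and Cdt1, the inhibitor geminin (Gmnn) and the 6 helicase subunits Mcm2, Mcm3, Mcm4, Mcm5, Mcm6 and Mcm7. They were chosen by name, as the probes that the platform annotation gives to exactly 1 gene with one of these symbols, which were 14 of 31769 probes and 10 of 14510 named genes. C2C12 is an established mouse myoblast line, of C3H origin per the labels, that fuses into myotubes once serum is withdrawn. In each of 8 RNA samples the labels describe cells carrying one of a pair of retroviruses under stable selection, 4 samples with a control virus encoding Neo and 4 with a virus that expressed HDAC4, a histone deacetylase. Both groups were otherwise treated alike, reaching 90% confluence and then spending 4 days in 2% horse serum. Each sample was labelled with Cy5 and hybridised to a 2-colour oligonucleotide array against a common mouse reference RNA in Cy3, and no array had its dyes swapped.

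The labels do not say whether the selected cells were pools or clones, nor whether the 4 samples of a group were separate cultures, so p-values measure only how these samples spread, and that spread may be technical. No probe names Hdac4 alone, so the virus could not be checked in the data. Values are log2 ratios of cells over reference, with each array's median at 0. The direction of the ratio is likely rather than stated: it was read from muscle genes such as Ckm, the muscle creatine kinase, whose mean was 9.37. All 6 myotube markers with a probe had a value on every array, and their median lay between 8.16 and 8.95 on the 8 arrays. Acta1 and Myh3, the other myotube markers listed, had no named probe, and Pax7, a marker of muscle stem cells, had no value on any array.

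Licensing is the step in which an origin of replication is made ready to fire, once per cell cycle. The origin recognition complex, of which Orc1 is a subunit, binds DNA in late mitosis and in the gap that follows, and Cdc6 and Cdt1 then load the ring of Mcm proteins around the double helix, where it waits as the inactive core of the replicative helicase. Geminin binds Cdt1 later in the cycle and so blocks a further round of loading. E2F factors drive many of these genes in proliferating cells, and myoblasts leave the cycle for good when they fuse, so licensing genes are commonly low in myotubes.

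Promoters are shown for these genes because they are textbook E2F targets and several of them moved together across the arrays, as described further on. RefSeq (GRCm38.p6) gave a window from 250 bases before to 50 bases after the start for 8 of the 10 genes, in 9 windows, with Mcm4 and Gmnn not among the entries used here. The windows were searched on both strands for the E2F-type letters TTTCCCGC, TTTCGCGC, TTTGCCGC and TTTGGCGC, allowing matches to overlap. A match was present for 7 of the 8 genes and in 77.8% of their windows, against 2.26% of all 32851 windows of the same length. The members were known E2F targets beforehand, so their share is a description and not a test. Among the gene lists described further on, 12 of 41 genes of the wider replication machinery held a match (24.5% of their windows). So did 7 of 22 regulators of licensing and of E2F (26.7% of windows), and 1 of 14 genes of S phase and mitosis (7.14% of windows). Whether the letters go with the movement across the arrays was not tested. A match is a description of letters in a window and not a measured binding site.

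Mcm5 and Mcm6 are shown over the 250 bases before their starts, 5′ to 3′ on the gene's strand and with the matches in capitals, because both held an overlapping pair of matches while their RNA moved differently across the arrays. The Mcm5 stretch is chr8:75109259-75109508 on the plus strand and the Mcm6 stretch is chr1:128359706-128359955 on the minus strand.
Mcm5: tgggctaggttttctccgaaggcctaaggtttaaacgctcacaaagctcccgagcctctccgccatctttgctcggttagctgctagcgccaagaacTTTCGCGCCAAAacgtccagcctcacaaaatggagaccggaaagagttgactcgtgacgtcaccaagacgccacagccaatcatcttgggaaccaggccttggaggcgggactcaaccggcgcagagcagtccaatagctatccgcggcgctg
Mcm6: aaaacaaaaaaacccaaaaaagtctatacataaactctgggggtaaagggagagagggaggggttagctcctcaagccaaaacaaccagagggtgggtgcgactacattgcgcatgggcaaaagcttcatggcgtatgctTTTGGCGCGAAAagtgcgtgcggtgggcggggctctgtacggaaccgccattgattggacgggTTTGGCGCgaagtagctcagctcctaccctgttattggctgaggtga

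For the other genes, the first match of the window is shown with 10 bases on each side, again with the searched letters in capitals, so that the letters can be compared between genes. They lie at chr11:98908003-98908030 (Cdc6, plus strand), chr4:108579417-108579444 (Orc1, plus strand), chr8:122568037-122568064 (Cdt1, plus strand), chr5:138172031-138172058 (Mcm7, minus strand) and chr1:20820276-20820303 (Mcm3, minus strand).
Cdc6: ccggtggagaGCGGGAAAtcgcctgggg
Orc1: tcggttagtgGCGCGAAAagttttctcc
Cdt1: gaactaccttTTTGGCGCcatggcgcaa
Mcm7: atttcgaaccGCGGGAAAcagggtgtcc
Mcm3: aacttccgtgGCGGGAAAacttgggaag
The first capital lay 138 bases before the start in Cdc6, 27 before it in Orc1 and 165 before it in this Mcm7 window, but after it in Cdt1 and Mcm3, at positions 33 and 20. The first matches of Cdc6, Mcm7 and Mcm3 had the same 8 letters. Mcm7 and Mcm3 each held a second match with other letters, TTTCGCGC at position 17 in Mcm7 and TTTGGCGC at position 39 in Mcm3. The Mcm2 window had no match, which says only that these letters are not in it.

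All 10 genes lay below the reference. The array with the highest value of any member was an HDAC4 array for the second Orc1 probe, at -1.02. Averaged over the arrays with a value, Mcm4 lay 10.7-fold below the reference, Mcm7 10.2-fold, Cdt1 9.95-fold, Mcm6 9.31-fold, Mcm5 9.29-fold and Mcm3 8.97-fold. Gmnn lay 7.77-fold below it, Mcm2 6.62-fold, Cdc6 4.93-fold and Orc1 4.40-fold. These are ratios to an RNA that is the same on every array, so they order the genes by their distance from that RNA and not by abundance. Between 0.62% and 1.72% of the probes measured on all arrays had a lower ratio than the member probes with a full set of values. The labels call the common RNA a mouse reference, and one labelling protocol names liver. Of 8 liver genes listed, 7 had a probe, 5 of these had any value, on at most 4 arrays each, and the means lay between -0.29 and 0.78. In bulk RNA of this kind, fewer cells that express a gene and less RNA per cell cannot be told apart.

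Of the 14 probes, 2 of the 4 for Mcm3 had no value on any array, 9 had a value on all 8, and 11 could be tested, which left every one of the 10 genes with a tested probe. Each gene was counted through its probe with most values. A floor of the reference signal of 10 units was inferred from all values, and 10.039% of all values sat at it. It can be seen only where the cells read at least as high as the reference. The 92 member values all lay below the reference, so none of them could be flagged. A floor of the cell signal was not examined.

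**Figure D1:**
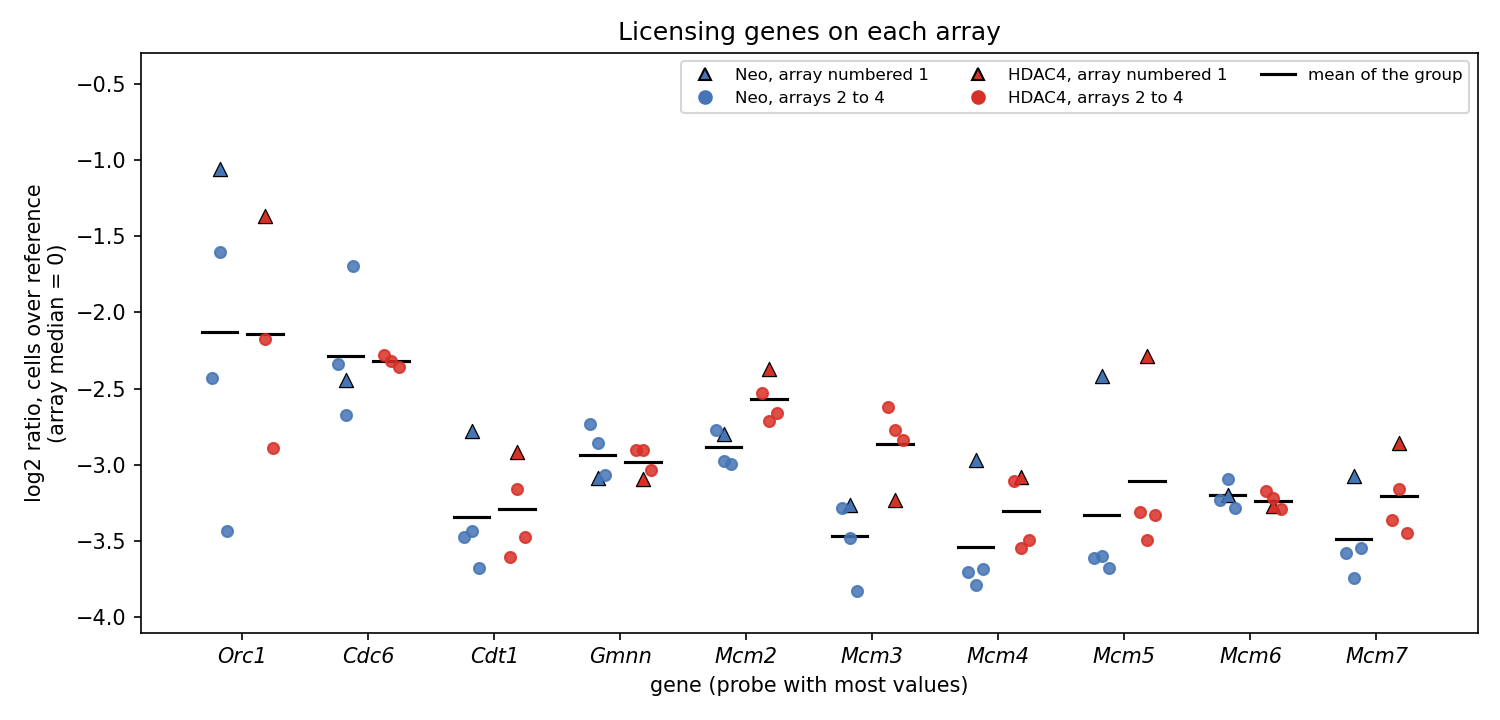
Log2 ratio to the reference, centred on each array's median (vertical axis), for the leading probe of each licensing gene (horizontal axis), with 1 point per array, triangles for the arrays numbered 1 and black lines for the group means. Mcm5, Mcm4, Mcm7, Cdt1 and Orc1 have their arrays numbered 1 above all the others, while Mcm2 and Mcm3 have their HDAC4 arrays above their Neo arrays.

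The main question of the design is what HDAC4 does in these cells. None of the 10 licensing genes passed limma's test at an adjusted p of 0.05, where 21 of the 16748 probes tested, or 0.125%, did. Mcm2 and Mcm3 were the 2 members whose HDAC4 arrays all lay above all Neo arrays, a pattern seen in this direction for 2.07% of probes. They were also the only 2 of the 10 with an unadjusted p under 0.05, against 7.03% of all probes. A higher mean with HDAC4 was found for 6 of the 10 (49.4% of all probes) and a lower one for 4, and the median change was 0.14, against -0.0036 over all probes. That median ran from -0.01 without HDAC4 replicate 1 to 0.35 without Neo replicate 1.

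Mcm3, a helicase subunit, had the largest change of the 10. With its leading probe the Neo arrays read -3.27, -3.29, -3.48 and -3.83 and the HDAC4 arrays -3.23, -2.62, -2.77 and -2.84, in the order of their numbers. The groups did not overlap, though HDAC4 array 1 lay only just above the highest Neo array. The Neo mean was -3.47 ± 0.26 (SD, n = 4), and the mean of the HDAC4 arrays was -2.87 ± 0.26 (SD, n = 4). The change of 0.60 (SE 0.18), or 1.52-fold, had an adjusted p of 0.448 in limma and an exact two-sided permutation p of 0.0286, the smallest that 4 against 4 can give. Without both arrays numbered 1 it was 0.79, with an adjusted p of 0.0548 in limma.

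The second Mcm3 probe gave a smaller change. Its Neo arrays read -3.17, -3.36, -3.46 and -3.74 and its HDAC4 arrays -3.13, -2.84, -3.38 and -3.20. Here the groups overlapped, and the change of 0.30 (SE 0.17) had an adjusted p of 0.814 in limma. Both probes were higher with HDAC4 in 4 of 4 comparisons between arrays of the same number. For the leading probe this was fixed by its groups not overlapping. No share over all probes was computed for such counts.

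Mcm2, the subunit that also handles histones at the fork, varied less within each group. The Neo arrays read -2.80, -2.77, -2.98 and -2.99 and the HDAC4 arrays -2.37, -2.53, -2.71 and -2.66. No HDAC4 array reached down to a Neo array, which by itself makes all 4 same-numbered comparisons higher with HDAC4. The means were -2.89 ± 0.12 (SD, n = 4) and -2.57 ± 0.15 (SD, n = 4), a change of 0.32 (SE 0.13), or 1.25-fold. The adjusted p was 0.686 in limma, and the exact two-sided permutation p was 0.0286.

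Mcm4, Mcm5 and Mcm7, the remaining subunits with a higher mean under HDAC4, had overlapping groups. Mcm7 changed by 0.28 (SE 0.19), Mcm4 by 0.23 (SE 0.21) and Mcm5 by 0.22 (SE 0.34), with adjusted p of 0.868, 0.897 and 0.948 in limma. The 95% interval for Mcm5 ran from -0.55 to 0.99. Without HDAC4 replicate 1 the Mcm5 change was -0.05. Compared by number, Mcm5 and Mcm7 were higher with HDAC4 in 4 of 4 and Mcm4 in 3 of 4, again with no share over all probes.

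Mcm6 was the flattest subunit. It read -3.20, -3.23, -3.09 and -3.28 on the Neo arrays and -3.27, -3.17, -3.22 and -3.29 on the HDAC4 arrays. All 8 values lay within a narrow band, and the change of -0.04 had a 95% interval from -0.29 to 0.22 and an adjusted p of 0.972 in limma.

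The loaders, the origin recognition subunit and the inhibitor had changes close to 0. Cdt1 changed by 0.05 (95% interval -0.45 to 0.56), Cdc6 by -0.03 (-0.55 to 0.49) and Gmnn by -0.05 (-0.34 to 0.25), with adjusted p of 0.980, 0.991 and 0.970 in limma. Cdc6 read -2.44, -2.34, -2.67 and -1.70 in Neo and -2.28, -2.32 and -2.36 on HDAC4 arrays 2, 3 and 4, and had no value on HDAC4 array 1. Gmnn stayed between -3.09 and -2.73 on all 8 arrays.

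Orc1 varied most of all members within a group. It read -1.06, -2.43, -1.61 and -3.43 in Neo, and -1.37, -2.17 and -2.89 on HDAC4 arrays 1, 3 and 4, with no value on array 2. The change of -0.01 (SE 0.56) had a 95% interval from -1.29 to 1.27 and an adjusted p of 0.998 in limma, so these arrays leave a wide range of changes possible for Orc1. Its second probe read -1.56, -2.54, -1.98 and -1.94 in Neo and had only 2 HDAC4 values, -1.02 and -2.91, and was not tested.

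**Figure D2:**
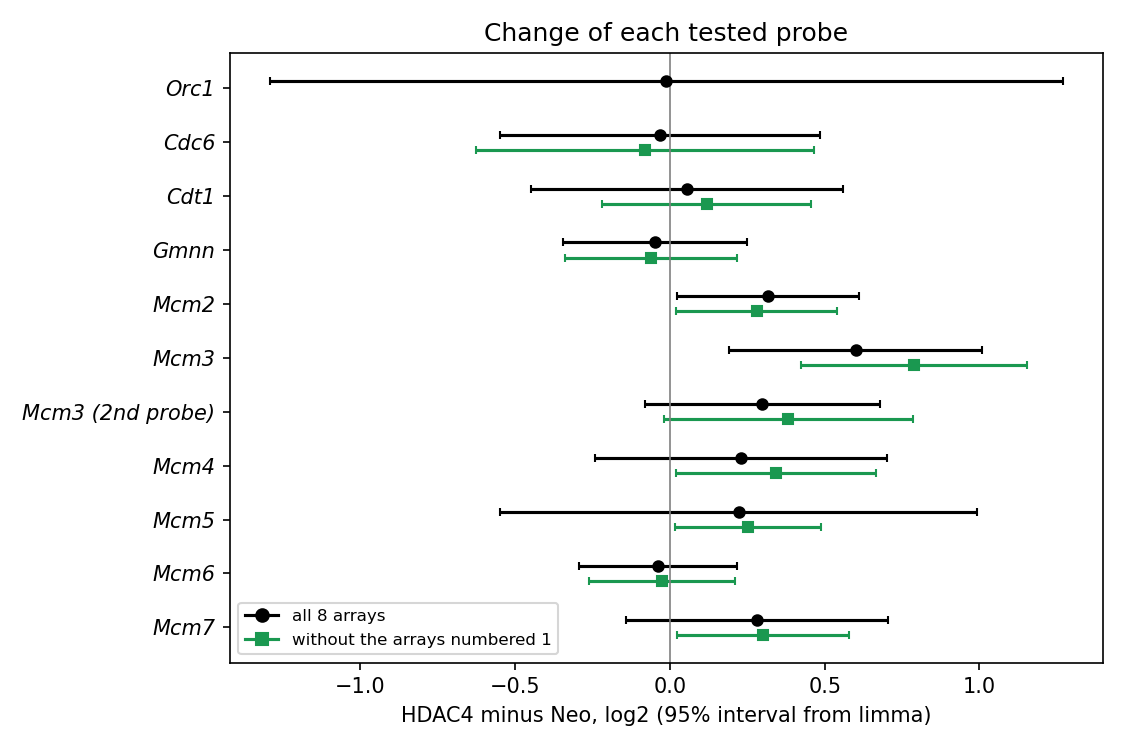
Change from Neo to HDAC4 in log2 (horizontal axis) with its 95% interval from limma for each tested member probe (vertical axis), over all 8 arrays (black circles) and without the arrays numbered 1 (green squares). Over all 8 arrays only the intervals of Mcm2 and of the leading Mcm3 probe lie wholly above 0; without the arrays numbered 1 those of Mcm4, Mcm5 and Mcm7 do too, and no member passed after adjustment over all probes.

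The 2 arrays numbered 1, one of each group, stood apart from the rest over all probes. They correlated with each other at 0.945 and with the other arrays at 0.893 to 0.910, while the other 6 correlated among themselves at 0.936 to 0.977. The labels do not say what the numbers mark. With a term for the arrays numbered 1 in the fit, 108 probes (0.645%) passed between HDAC4 and Neo but still none of the 10 members. With both of these arrays left out, 348 probes (2.26%) passed and 0 of 9 members, while Mcm2, Mcm3, Mcm4, Mcm5 and Mcm7 each had a higher HDAC4 mean at an unadjusted p under 0.05, against 8.48% of probes in that direction. Leaving out 1 array moved the count of 21 to 74 without Neo array 1, to 0 without Neo array 2, 3 or 4, to 88 without HDAC4 array 1 and to 3, 9 and 2 without HDAC4 arrays 2, 3 and 4. At an unadjusted p under 0.05, limma gave 915, 957 and 936 probes without Neo array 2, 3 and 4. With the array number as a block, 9 probes (0.0537%) passed.

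The licensing genes Mcm5, Cdt1, Mcm7 and Mcm4 were higher on the arrays numbered 1 than on the other 6, by limma with the virus in the fit. The background is high: 21.7% of the 16619 probes passed in this comparison, 10.5% higher and 11.2% lower, and 4 of 10 members passed, all higher. The median change of the 10 was 0.35, against 0.034 over all probes. Both arrays numbered 1 lay above all the others for 5 members, these 4 and Orc1, as they did for 18.4% of probes. For Gmnn both lay below all the others, at -3.09 each, with the next array at -3.06. The share of probes in that direction is not given here.

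Mcm5 had the largest of these changes. On the arrays numbered 1 it read -2.42 in Neo and -2.29 in HDAC4, and on the others -3.61, -3.60 and -3.68 in Neo and -3.31, -3.50 and -3.33 in HDAC4. Both arrays numbered 1 lay above every other array by a wide gap. The change was 1.15 (SE 0.11), or 2.22-fold, with an adjusted p of 0.0014 in limma.

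Cdt1, the loader that geminin restrains, read -2.78 and -2.92 on the arrays numbered 1 and between -3.68 and -3.16 on the others, a change of 0.62 (SE 0.15), or 1.54-fold, with an adjusted p of 0.0238 in limma. Mcm7 read -3.07 and -2.85, against -3.74 to -3.16, a change of 0.51 (SE 0.12), or 1.42-fold, with an adjusted p of 0.0243 in limma. Mcm4 read -2.97 and -3.08, against -3.79 to -3.11, a change of 0.53 (SE 0.16), or 1.44-fold, with an adjusted p of 0.0473 in limma. None of these 3 genes overlapped between the array numbers, although for Mcm4 and Mcm7 a single HDAC4 array came close. With the Neo array numbered 1 left out, the changes of Mcm5, Mcm7 and Mcm4 were 1.09, 0.47 and 0.30. With the HDAC4 array numbered 1 left out, they were 1.21, 0.55 and 0.76. Each of these 2 fits rests on a single array numbered 1 and covers only 9 of the 10 members. Over all runs with 1 array left out, the Cdt1 change ran from 0.49 to 0.75. Mcm4 missed the threshold without any one of Neo arrays 2, 3 and 4 and HDAC4 arrays 3 and 4.

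Orc1 had the largest change in size, 1.31 (SE 0.44), with its values of -1.06 and -1.37 on the arrays numbered 1 above all others, but its adjusted p was 0.0734 in limma. Averaged over both Orc1 probes it passed, with an adjusted p of 0.0176. Mcm2 changed by 0.19 (adjusted p 0.294 in limma), and by 0.47 with an adjusted p of 0.0244 when arrays were quantile normalized, where 5 of the 10 members passed. Mcm3 changed by -0.11, Mcm6 by -0.02, Gmnn by -0.17 and Cdc6, measured on a single array numbered 1, by -0.20, and these 4 signs turned to 0.27, 0.36, 0.18 and 0.07 when arrays were quantile normalized. Quantile normalization also raised the changes of Mcm5, Cdt1, Mcm7 and Mcm4, to 1.52, 0.98, 0.91 and 0.94, while the median over all probes became 0.059.

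**Figure D3:**
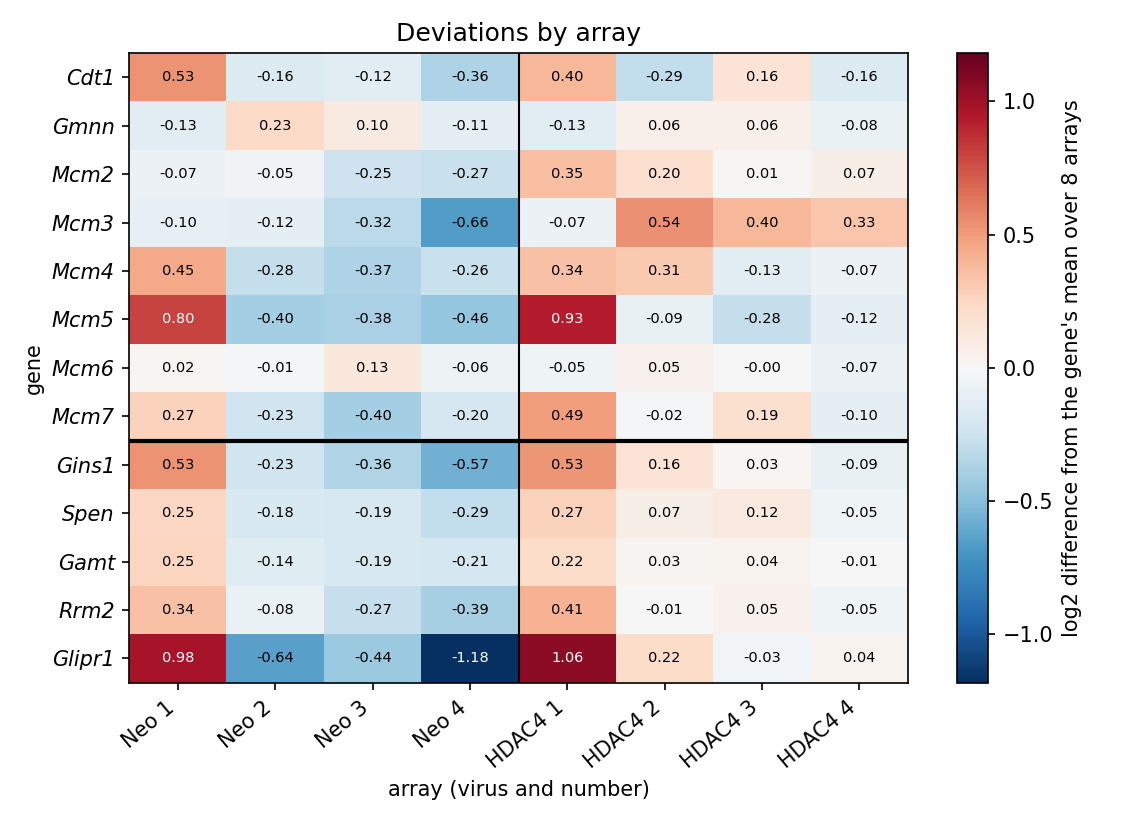
Log2 difference of each gene from its own mean over the arrays (colour and printed value) on the 8 arrays (horizontal axis), for the 8 licensing genes with full values (upper rows) and the 5 genes most like their average, named in the text that follows (lower rows). Mcm5, Cdt1, Mcm7 and Mcm4 are highest on both arrays numbered 1, and Mcm6 differs little between the arrays.

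Across the 8 arrays, the deviations of the members averaged 0.22, -0.13, -0.20 and -0.30 on the Neo arrays and 0.28, 0.10, 0.05 and -0.03 on the HDAC4 arrays, over the 8 genes with a value on every array. Mcm5 ran closest to Mcm4 (r = 0.86), Mcm7 (0.85) and Cdt1 (0.85), while Mcm5 and Gmnn ran opposite (-0.63). These are descriptions over 8 arrays that share the reference and the array number. The members' average profile was compared with 9563 other probes that name 1 gene and have full values. Unnamed probes were left out. The 5 most alike were those for Gins1, a subunit of the complex that joins the Mcm ring in the active helicase (r = 0.991), Spen (0.985), Gamt (0.974), Rrm2, the ribonucleotide reductase subunit that supplies DNA precursors (0.971), and Glipr1 (0.971).

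The rest of the replication machinery was read from a list of 50 genes, from the other origin recognition subunits to the polymerases and the enzymes of nucleotide supply. Between HDAC4 and Neo 0 of the 44 tested passed in limma, and the median was 0.15. An unadjusted p under 0.05 was found for 3, all higher, against 7.03% of all probes in either direction. These 3 were Lig1, the ligase that seals new strands (0.56, adjusted p 0.351), Topbp1, which helps fire origins (0.61, adjusted p 0.639, with -0.32 at its other probe), and Cdc45, a partner of the Mcm ring (0.38, adjusted p 0.660). On the arrays numbered 1, 8 of the 44 were higher and 0 lower after adjustment, against 10.5% and 11.2% of all probes, with a median of 0.27. They included Pola1, a catalytic subunit of the priming polymerase (1.35, adjusted p 0.0044), the GINS subunits Gins3 (1.04) and Gins1 (0.71), Tk1 (0.95), Rrm2 (0.50) and the sliding clamp Pcna (0.45, and 0.69 at its other probe). Without Neo array 1, Gins1, Orc2 (0.48), Pcna, Rrm2 and Tk1 missed the threshold, and without HDAC4 array 1 Gins3, Rrm2 and Tk1 did. Pcna also missed it without Neo array 2 or 3, and Tk1 without Neo array 2 or HDAC4 array 2. For Pola1 the mean over both probes was 0.50, with an adjusted p of 0.112.

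Of the other origin recognition subunits, Orc6 (0.81, adjusted p 0.0054) and Orc2 (0.75, adjusted p 0.018) were higher on the arrays numbered 1 in limma. Orc4 (0.14) and Orc5 (0.37) did not pass, and Orc3 was not tested. Between HDAC4 and Neo, Orc2, Orc4, Orc5 and Orc6 changed by between -0.19 and 0.07, and none passed.

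The regulators of licensing and of E2F were a list of 30 genes, with 25 tested. None passed between HDAC4 and Neo in limma, 2 had an unadjusted p under 0.05 (7.03% of all probes), and the median was 0.09. Those 2 were Cdkn1c, an inhibitor of cyclin-dependent kinases, and Mybl2, which works with E2F-linked complexes (0.81, adjusted p 0.347). Ccna2, the cyclin of S phase, was next (0.60, adjusted p 0.755). Cdkn1c read 2.16, 3.03, 3.01 and 3.09 in Neo and 3.23, 5.11, 5.24 and 5.46 in HDAC4. All HDAC4 arrays lay above all Neo arrays, and array 1 was the lowest of each group. The change was 1.94 (adjusted p 0.249), and it passed with a term for the arrays numbered 1 (adjusted p 0.0103), without both of them (2.23, adjusted p 0.0010) and without HDAC4 array 1 alone (2.45). On the arrays numbered 1 Cdkn1c was lower, by -1.47 (adjusted p 0.0060), the only one of the 25 to pass as lower. That change was -0.89 without HDAC4 array 1 (adjusted p 0.0189), and it missed the threshold with no term for the virus (adjusted p 0.206). On these arrays 5 of the 25 passed as higher, against 10.5% of all probes. They were Ccna2 (0.93), the cyclins Ccne1 (0.77) and Ccne2 (0.72), Lin54 (0.88) and Fzr1 (0.55). Fzr1 is an activator of the complex that removes geminin. Fzr1 read 0.43 on HDAC4 array 1 but -0.47 on Neo array 1, and its change was 0.19 without the former (adjusted p 0.384) and 0.91 without the latter. Ccne2 changed by 0.23 without Neo array 1 (adjusted p 0.380) and by 1.22 without HDAC4 array 1. Fzr1 and Ccne2 also missed the threshold without most single arrays of numbers 2 to 4. Ccne1 missed it without Neo array 1, and Lin54 without HDAC4 array 1.

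Genes of S phase and mitosis were a list of 17, with 15 tested. Between HDAC4 and Neo none passed in limma, and none had an unadjusted p under 0.05, against 7.03% of all probes. Of the 15, 13 were above 0 (49.4% of all probes), and the median was 0.33. The smallest p values belonged to the mitotic spindle genes Tpx2 (0.45) and Aurka (0.46) and to the checkpoint kinase gene Bub1b (-0.63). On the arrays numbered 1, 9 of 15 passed, all higher, against 10.5% of all probes. The median was 0.83, against 0.034 over all probes, and all 15 changes were above 0. Bub1 changed by 1.32, Cenpa by 1.17, Cdc20 by 1.15, Kif11 by 1.12, Top2a by 0.90, Aurkb by 0.87, Cdk1 by 0.83, Aurka by 0.78 and Tpx2 by 0.70. Without HDAC4 array 1, Cdk1 changed by 0.36 (adjusted p 0.185) and Tpx2 by 0.41 (adjusted p 0.129), and neither passed, while Cenpa (0.68) and Cdc20 (0.75) were smaller but passed. Without Neo array 1, Cdk1 changed by 1.30, and Kif11 missed the threshold (adjusted p 0.0545). Mki67, the usual antigen of cycling cells, did not pass, at 0.04.

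**Figure D4:**
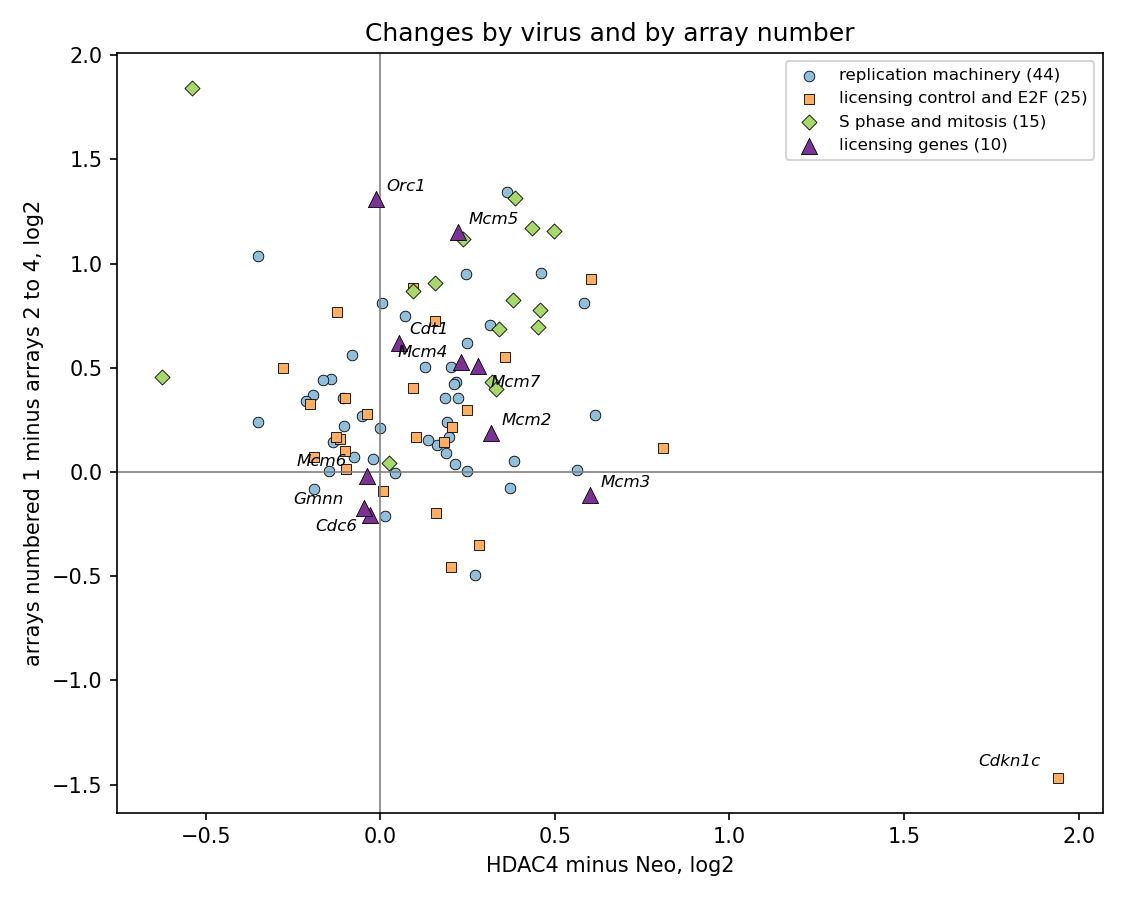
Change from Neo to HDAC4 (horizontal axis) and change from arrays numbered 2 to 4 to arrays numbered 1 (vertical axis), both in log2, with 1 point per tested gene of the members and the 3 lists. Orc1, Mcm5, Cdt1, Mcm7 and Mcm4 lie well above 0 on the vertical axis, among most genes of S phase and mitosis. Mcm3 lies to the right near 0 on it.

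Other cell type markers were read beside the member changes. The dividing cell markers, all of which are also on the list of S phase and mitosis, had a probe for 4 of 5. Their median was -3.31 and -2.83 on the arrays numbered 1 against -4.32 to -3.82 on the others. Of these 4 markers, 3 passed as higher, against 10.5% of all probes. The myotube markers had medians of 8.58 and 8.74 on the arrays numbered 1 and 8.16 to 8.95 on the others. Tnnc2 alone of 6 passed, as higher (0.69, adjusted p 0.0485 in limma), against 10.5% of all probes. Of the fibroblast markers, 4 of 7 were tested. Dcn alone passed on the arrays numbered 1, as lower (-2.11), against 11.2% of all probes. Pdgfra changed by -1.03, Col1a2 by -0.07 and Pdgfrb by 0.50. Of the myoblast and reserve cell markers 4 of 6 were tested. On the arrays numbered 1 their median change was -0.07, with 2 above 0 and 2 below. Id1 alone passed there, as higher (0.40), against 10.5% of all probes. Cd34 changed by -0.63, Myf5 by -0.19 and Id3 by 0.06. Between HDAC4 and Neo all 4 changes were below 0, while 49.4% of all probes were above it. The change of Id1 was -0.70 (adjusted p 0.241 in limma). Id1 passed as lower with HDAC4 in limma with a term for the arrays numbered 1 (adjusted p 0.0279) and without both of them (-0.78, adjusted p 0.0121). In that last setting all 3 of these markers that could be tested were lower at an unadjusted p under 0.05 in limma. The others were Id3 (-0.54) and Cd34 (-0.57). Of the 15397 probes tested there, 2803 had such a p in either direction, and 1305 of these were higher with HDAC4. Over all 8 arrays Id3 changed by -0.26 and Cd34 by -0.05, with unadjusted p of 0.236 and 0.889 in limma. Of 4 adipocyte markers only Fabp4 had any value, on 3 arrays. The part of any of these in the changes of the licensing genes was not tested.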

How the data were processed

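RNA of 8 C2C12 samples was measured on 2-colour arrays, with 17014 to 22193 values per array. For each probe and array the authors deposited a log2 ratio, with column medians between 0.00576 and 0.02857. For the background correction, normalization, filters, software and genome build, nothing is given in the sources used here. The ratio has no depth, so the number of arrays limits the precision. Of 31769 probes, 18976 name 1 gene, 404 several and 12389 none in the platform annotation; symbols were updated through RefSeq, except for 41 probes.

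Arrays were centred on their medians. Each probe with at least 3 values per group was fitted with limma 3.58.1 in R 4.3.3, with Benjamini-Hochberg adjustment over all tested probes; a second fit added a term for the arrays numbered 1. Only the main fit, without that term, was tested on simulated data. The simulated arrays carried no shift by array number. Same-numbered arrays deviated together from their group means (correlations 0.531, 0.310, 0.208 and 0.115 over 14746 probes). The deviations of differently numbered arrays were not compared, so these values do not show that the numbers mark pairs. The main fit used no pairs. Pairs by number, which the labels do not state, entered only the fit with a block and the same-numbered comparisons. The licensing genes, the lists and the promoter letters were chosen with earlier results of these data known. All licensing genes are named, with, per list, the 3 genes of smallest p in each comparison, those that passed, and the 5 most alike in profile. Orc4, Orc5, Mki67 and the marker genes are named to complete their groups. Fits dropped a missing value rather than filling it in.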

Additional observations from a re-analysis of the deposited data

Results flagged for a closer look

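In 21 groups of 4 arrays, 3 had an array far from the other 3, where chance alone gives about 1 in 20. Mcm4 read -2.97 on Neo array 1, with the other Neo arrays between -3.79 and -3.68. Mcm5 read -2.42 on Neo array 1, with the others between -3.68 and -3.60. Mcm5 also read -2.29 on HDAC4 array 1, with the others between -3.50 and -3.31. All 3 values belong to the arrays numbered 1.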

How the results depend on the processing

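No licensing gene passed between HDAC4 and Neo under any alternative run. The count of 21 probes became 9 with the replicate block, 108 with a term for the arrays numbered 1 and 348 without both of them. It became 1 with values flagged for the reference floor left out (911 at an unadjusted p under 0.05 in limma). With 1 array left out it ran from 0 to 88. The block changed no other call. Members with a lower mean were 2 of those with values on all 8 arrays, and 2 to 5 with 1 array left out, where the median ran from -0.012 to 0.35. Between array numbers, 2 members passed with no group term and 1 to 4 with 1 array left out, among 2205 to 3842 probes. Leaving out each array numbered 1 there was chosen after seeing the data. Quantile normalization turned the HDAC4 change of Cdt1 to -0.030 and of Orc1 to 0.038, and the change by number of Mcm3 to 0.27, Mcm6 to 0.36, Cdc6 to 0.071 and Gmnn to 0.18; the mean over Mcm3 probes gave 0.035 by number. With 1 array left out, HDAC4 changes ran from -0.051 to 0.53 for Mcm5, -0.16 to 0.17 for Cdc6, -0.069 to 0.24 for Cdt1, -0.45 to 0.35 for Orc1 and -0.10 to 0.020 for Gmnn, and changes by number from -0.49 to 0.27 for Mcm3, -0.045 to 0.0025 for Mcm6 and -0.42 to 0.066 for Cdc6. The cause was not tested.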
